A study of Mus musculus with 2 samples.

Results

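The regions described here are 7 spans inside the arms of mouse chromosomes 2, 5, 9, 14, 15 and 17 that gathered far more KDM4A ChIP-seq reads than the sequence around them. They were chosen by their high read coverage in both libraries, so their coverage is a description and not a finding. They comprise 1800 windows of 500 bp, out of 5255999 such windows on the autosomes and the X chromosome. In genome build mm8 the spans are chr2:98400001-98500000, chr14:18200001-18300000, chr17:39400001-39500000, chr5:14900001-15200000, chr9:35000001-35100000, chr14:39150001-39250000 and chr15:74850001-74950000. The 2 spans of chromosome 14 are called the first and the second, in the order of their coordinates.

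The study asked where the histone demethylase KDM4A lies on the genome when GPS2 is depleted. There were 2 ChIP-seq libraries from 3T3-L1 cells, a mouse preadipocyte line, transfected and then induced to differentiate. The siCTL library came from cells given control siRNA and the siGPS2 library from cells given siRNAs against GPS2, and both used the same antibody (Abcam ab47984). With 1 library per group from 1 cell line, no difference below has a replicate check, and all intervals cover counting error only: they compare these libraries, not the conditions. The reads carry no molecular identifiers, so copies of 1 molecule can count more than once. No input library was used, so antibody-bound DNA and DNA present in many copies cannot be told apart.

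KDM4A removes methyl groups from lysines 9 and 36 of histone H3. GPS2 belongs to the NCoR/SMRT corepressor complex. Methylated lysine 9 marks the packed chromatin that covers tandem repeats in mammalian nuclei, and the arrays beside mouse centromeres are the best known of these. Reads from such repeats can be aligned to many copies, and an assembly that holds only a few copies gathers the reads of all of them on those few.

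The siCTL library held 6568834 reads and the siGPS2 library 4947088. A place is a position and strand at which a read begins, and counting 1 read per place left 6559860 and 4940261 distinct reads. The genome mean was 1.25 and 0.938 distinct reads per window. A ratio is siGPS2 over siCTL after scaling each library to its distinct reads, so that equal read numbers in a region give a ratio of 1.33. Both libraries came from the same run, flow cell and lane by their read names.

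The 7 spans held 14182 distinct reads in siCTL and 12330 in siGPS2, or 0.216% and 0.250% of the libraries. This was 6.33 and 7.30 times the genome mean for the same length. The reads were not spread over the spans: 140 windows held at least 10 times the genome mean over both libraries added and are called dense, while 355 windows had no read in either library. The limit lay at 21.8 reads, with the nearest windows at 22 and 21. Of the 2612 dense windows on the autosomes and the X chromosome, 5.36% were in these spans.

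In 6 of the spans the reads sat in short stretches with sharp ends. The 31 dense windows of these spans covered 15500 bp and held 86.4% of the siCTL reads and 88.9% of the siGPS2 reads of the 6 spans. On chromosome 2 there were 4 stretches within a few kilobases. The largest, chr2:98467001-98468500, held 1473 distinct reads in siCTL and 1450 in siGPS2. The stretch chr2:98463001-98464000 held 853 and 828, chr2:98464501-98465000 held 351 and 303, and chr2:98465501-98466500 held 210 and 194. Almost nothing lay between them: the 3 windows that part these stretches had 5, 1 and 0 reads in siCTL and 4, 1 and 0 in siGPS2. The libraries thus placed the 4 stretches and their gaps at the same windows.

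On chromosome 14 the first span had a single stretch, chr14:18208501-18210500, with 1416 distinct reads in siCTL and 1292 in siGPS2. It ended where a run of 50000 bp began, chr14:18210501-18260500, in which neither library had a read. The second span had 1 dense window, chr14:39187501-39188000, with 474 and 475 reads, and the window before it had 10 and 10. Chromosome 9 had chr9:35054501-35055500 with 534 and 501 reads, and chromosome 15 had chr15:74912501-74914500 with 548 and 505. The widest unbroken stretch outside the chromosome 5 span was on chromosome 17, at chr17:39451001-39457000, with 2797 and 2603 reads over 6000 bp. The windows that flank these last 3 stretches held 0 to 4 reads in either library.

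The chromosome 5 span had another shape. Its 109 dense windows were scattered in 55 stretches, and the highest window, chr5:15133501-15134000, held only 41 reads in siCTL and 28 in siGPS2. Its widest stretch, chr5:15128001-15135500, ran over 7500 bp but held only 360 and 257 distinct reads. The median window of the span held 5 and 4 reads, above the genome mean in both libraries. Dense windows accounted for 47.5% and 48.04% of its reads, so that its coverage was broad and low where that of the other 6 spans was narrow and high. A run of 49500 bp without any read, chr5:15069001-15118500, divided it.

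**Figure D1:**
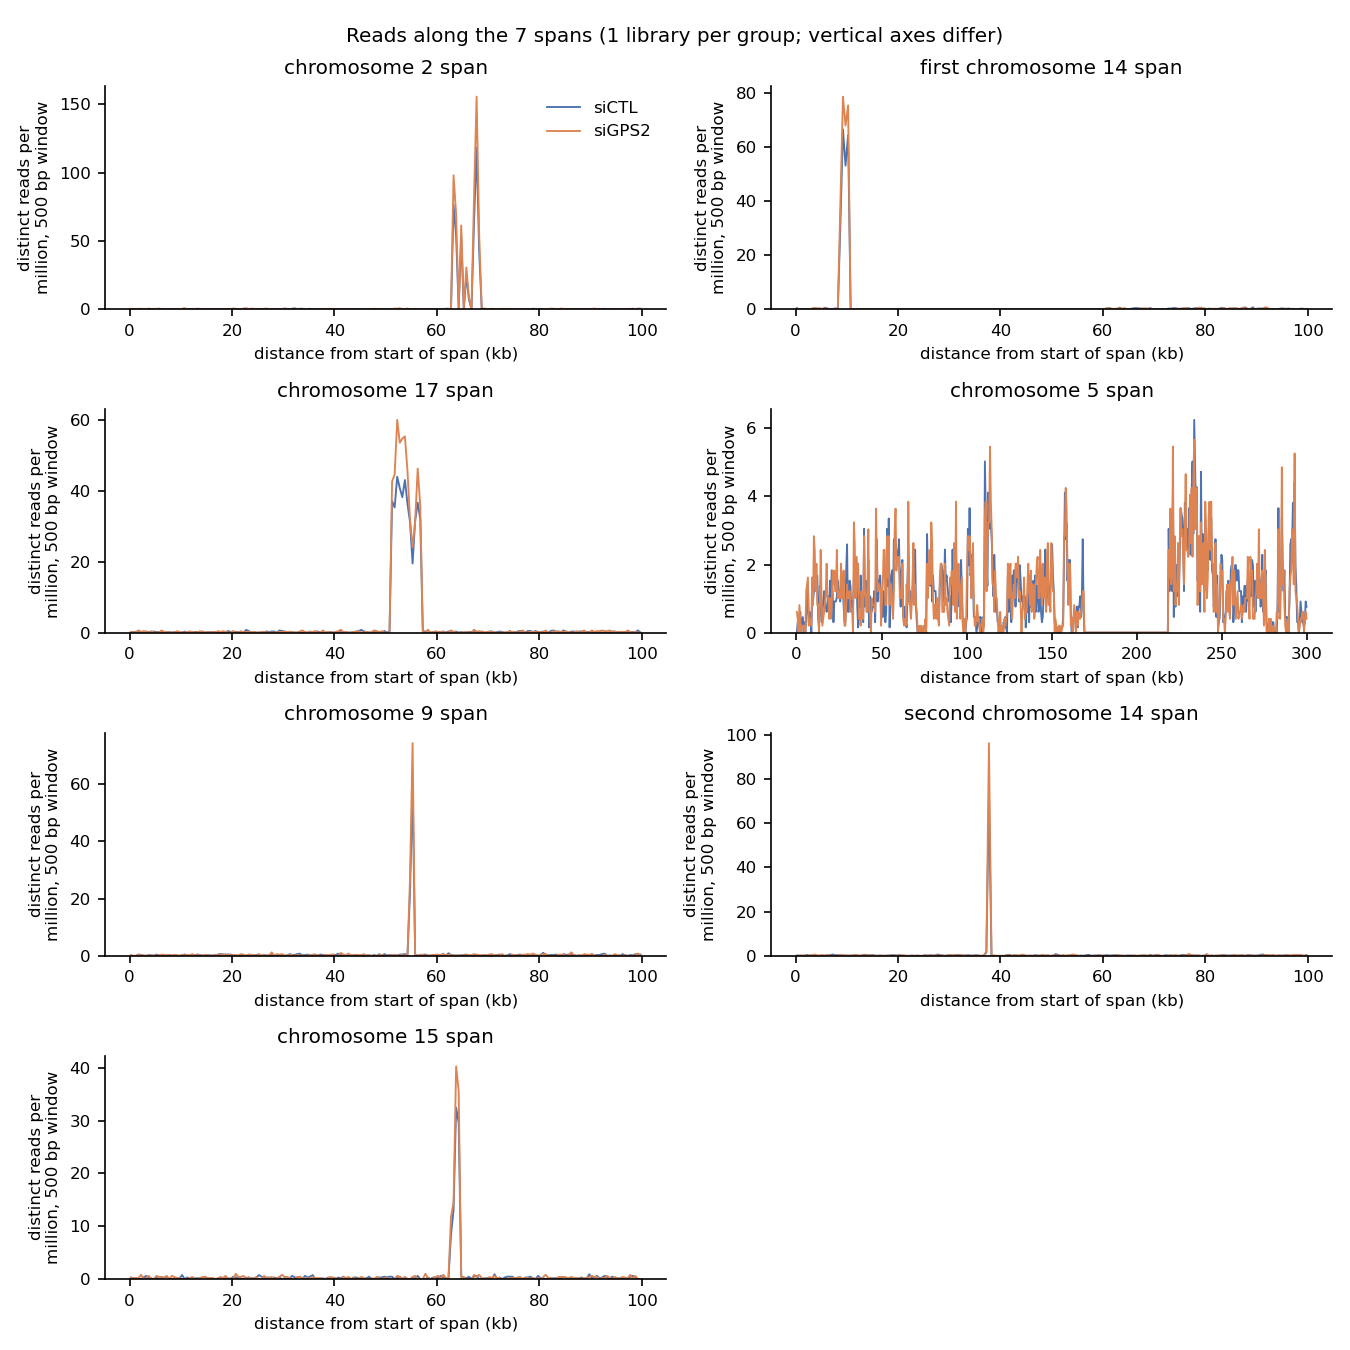
Distinct reads per 1000000 distinct reads of the library in each 500 bp window (vertical axis, scales differ) against distance from the start of the span in kilobases (horizontal axis), with 1 line per library. In 6 spans the reads form narrow peaks at the same windows in both libraries (the highest at 118 in siCTL and 155 in siGPS2 on chromosome 2), while chromosome 5 shows broad coverage up to 6.25 and a long run without reads.

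In distinct reads scaled to depth (RPM, reads per 1000000 distinct reads), the highest windows of the spans followed the same order in the 2 libraries. The chromosome 2 window chr2:98467501-98468000 led with 118 RPM in siCTL and 155 RPM in siGPS2. The window of the second chromosome 14 span followed with 72.3 and 96.1, and chr14:18209001-18209500 in the first span had 66.6 and 78.7. On chromosome 9 the window chr9:35055001-35055500 had 59.1 and 74.3. Chromosome 17 at chr17:39452001-39452500 had 44.1 and 60.1, chromosome 15 at chr15:74913501-74914000 had 32.5 and 40.3, and chromosome 5 had 6.25 and 5.67. Every one of these windows except that of chromosome 5 was higher in siGPS2 on this scale. The spread of these levels between samples is not known, so no step between neighbours in the order was compared with it.

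How well reads could be placed differed widely between spans. The alignments carry a mapping quality score, which is low where a read matches several sites about equally well. Shares are given of distinct reads, where a place with several reads counts by its highest score. On chromosome 17, 78.7% of distinct siCTL reads and 79.0% of distinct siGPS2 reads had a score of at least 30. In the first chromosome 14 span only 4.31% (Wilson interval 3.41 to 5.44) and 2.91% (2.15 to 3.94) did. Chromosome 2 had 13.9% and 14.7%, and chromosome 5 had 13.7% and 14.1%. Over all deposited reads the share was lower on chromosome 2, at 8.54% and 9.31%, and 78.2% and 78.7% on chromosome 17. The spans had been listed as repeat arrays. Most chromosome 17 reads matched 1 site of the assembly better than any other. The score cannot tell a sequence present once from a repeat of which the assembly holds 1 copy. That span is therefore named here by its position only.

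In the other 3 spans the high-scoring reads were a smaller share of the dense windows than of the whole span. Of distinct reads, 41.8% and 36.5% over the chromosome 9 span scored at least 30, and 10.7% and 8.98% in its dense windows. The second chromosome 14 span gave 36.6% and 30.4% overall and 16.9% and 14.3% in its dense window. Chromosome 15 gave 40.3% and 39.0% overall and 30.7% and 30.3% in its dense windows. Over all deposited reads of the whole spans, chromosome 9 had 29.3% and 24.9% and the second chromosome 14 span 21.7% and 17.9%. Chromosome 15 then had 39.6% and 38.4%. The dense windows of chromosome 9 and of the second chromosome 14 span thus had low shares, as those of chromosome 2 did (9.56% and 10.6%), with chromosome 15 between these and chromosome 17.

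In the densest windows a large share of the available places held a read. A 500 bp window has 1000 places, counting both strands. In chr2:98467501-98468000, 77.4% of them held a siCTL read and 76.8% a siGPS2 read, and 661 places were used in both libraries. The dense window of the second chromosome 14 span had 47.4% and 47.5% of its places filled, with 399 in both. The siGPS2 library had about as many filled places as siCTL in these windows although it held fewer reads in all.

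The libraries often used the same places. In the dense windows of chromosome 2, 36.1% of places were filled in siCTL and 34.7% in siGPS2, and 72.05% of the siCTL places were also filled in siGPS2. On chromosome 9, with 26.7% and 25.1% filled, 75.8% were shared, and in the second chromosome 14 window 84.2% were. The first chromosome 14 span shared 59.1% with 35.4% and 32.3% filled. Chromosome 15 shared 32.5% with 13.7% and 12.6% filled. In all of these spans the share in common lay above the share of places filled in siGPS2. Except in the second chromosome 14 window, the shares were pooled over windows filled to different degrees, which by itself raises the share in common. In siCTL the dense windows of chromosome 2 ran from 4.8% to 77.4% filled. In the fullest, 661 of 774 siCTL places were shared at 76.8% filled in siGPS2. On chromosome 17 the values were close together, with 26.9% shared at 21.7% filled in siGPS2. On chromosome 5, 3.65% were shared at 1.39% filled.

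Among the spans, places with several reads were common in 4. On chromosome 2, 40.4% of the filled places in siCTL and 37.5% in siGPS2 held more than 1 read, and up to 8 and 9 reads lay on 1 place. The second chromosome 14 span had 39.2% and 40.1%, chromosome 9 had 29.8% and 32.8%, and the first chromosome 14 span had 27.4% and 26.2%. Chromosome 15 had 1.68% and 1.36%, chromosome 17 had 0.863% and 0.614%, and chromosome 5 had 0.0240% and 0.0317%. Together the spans held 38.0% and 43.8% of all repeated reads of the libraries. Outside the spans 0.0849% and 0.0778% of reads repeated a place.

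The repeats of a place also went with the mapping score. Of the reads with score 0 in the spans, 27.6% in siCTL and 26.6% in siGPS2 repeated a place. At scores of 30 and above only 8 of 4384 siCTL reads (0.182%) and 5 of 3852 siGPS2 reads (0.130%) did. How repeats were removed before deposit is not stated by any source used here. A distinct count cannot exceed the number of places.

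Strands were used about equally. In the dense windows of chromosome 2, 51.2% of distinct siCTL reads and 51.3% of siGPS2 reads lay on the minus strand. The lowest shares, 45.6% (interval 41.1 to 50.1) and 46.1% (41.7 to 50.6), were those of the second chromosome 14 window. The highest in siGPS2 was 53.8% (51.3 to 56.3) on chromosome 5.

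Scaled to depth, siGPS2 was higher over the 7 spans together, with a ratio of 1.15 (interval 1.13 to 1.18). On chromosome 2 the counts were 3088 distinct reads in siCTL and 2943 in siGPS2, a ratio of 1.27 (1.203 to 1.33). Chromosome 17 had 3012 and 2767, a ratio of 1.22 (1.16 to 1.28). The second chromosome 14 span had 686 and 619, a ratio of 1.198 (1.07 to 1.34). In the first, 1555 and 1374 distinct reads gave 1.17 (1.09 to 1.26). Chromosome 15 had 832 and 734, a ratio of 1.17 (1.06 to 1.30), and chromosome 9 had 849 and 735, a ratio of 1.15 (1.04 to 1.27). These 6 ratios overlapped one another within their counting error. Chromosome 5 had 4160 and 3158 reads, a ratio of 1.01 (0.962 to 1.06), and the other 6 spans together exceeded it 1.21-fold (1.14 to 1.27).

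The higher ratio belonged to the dense windows of the 6 spans other than chromosome 5, which gave 1.25 (1.21 to 1.29). On chromosome 5 the dense windows gave 1.02 (0.953 to 1.09) and the others 0.997 (0.935 to 1.06). All dense windows of the 7 spans held 10631 and 9668 distinct reads, a ratio of 1.21 (1.17 to 1.24). The other windows of the 7 spans held 3551 and 2662, a ratio of 0.995 (0.946 to 1.05). In the first chromosome 14 span the dense windows gave 1.21 (1.12 to 1.31) and the rest, with 139 and 82 reads, gave 0.783 (0.589 to 1.04). Around the dense stretches of the 6 spans without chromosome 5 the ratio was 0.992 (0.914 to 1.08). Among the 31 dense windows of these 6 spans the ratio ran from 0.994 to 1.43 with a median of 1.26. It was above 1 in 30 of the 31 windows, and the interval lay above 1 in 19.

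Few windows passed a fold criterion. A window was called when it held at least 30 distinct reads over both libraries, differed at least 1.5-fold and had an interval that excluded 1. Of the 86 windows of the spans with enough reads, 0 were called higher in siGPS2 and 1 was called lower. Over the genome 1.91% of 2089 such windows were called higher and 0.814% lower, so that these counts were near the background. The called window, chr5:15132501-15133000, had 33 reads in siCTL and 11 in siGPS2, a ratio of 0.443 (0.202 to 0.898), and none of its reads had a mapping score of 30 or more. With no fold required, 19 windows had an interval above 1, all in the 6 spans other than chromosome 5. Dense windows of chromosome 5 held at most 41 siCTL and 28 siGPS2 reads, which leaves wide intervals. Every window with at least 30 reads is dense by definition. The share of genome windows with an interval above 1 and no fold limit was not counted.

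Reads with a high mapping score gave another ratio than all reads in some spans. With reads of score 30 or more, the chromosome 17 ratio was 1.23 (1.16 to 1.30), from 2369 and 2187 reads. Chromosome 2 gave 1.33 (1.16 to 1.53), from 430 and 432. In the second chromosome 14 span the ratio was 0.995 (0.819 to 1.21) and on chromosome 9 it was 1.002 (0.852 to 1.18). The reads below that score gave 1.31 (1.16 to 1.49) and 1.21 (1.07 to 1.38). Most high-scoring reads of these spans lay outside the dense windows, however. Inside the dense windows the lower-scoring reads gave 1.36 (1.19 to 1.56) and 1.23 (1.08 to 1.39). High-scoring reads there gave 1.13 (0.805 to 1.58) and 1.05 (0.693 to 1.58), with intervals that overlapped these. The first chromosome 14 span had only 67 and 40 such reads, a ratio of 0.793 (0.522 to 1.19). Chromosome 5, with 569 and 446 such reads, gave 1.04 (0.917 to 1.18). With these reads the interval lay above 1 on chromosomes 2 and 17 and included 1 in the other spans.

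**Figure D2:**
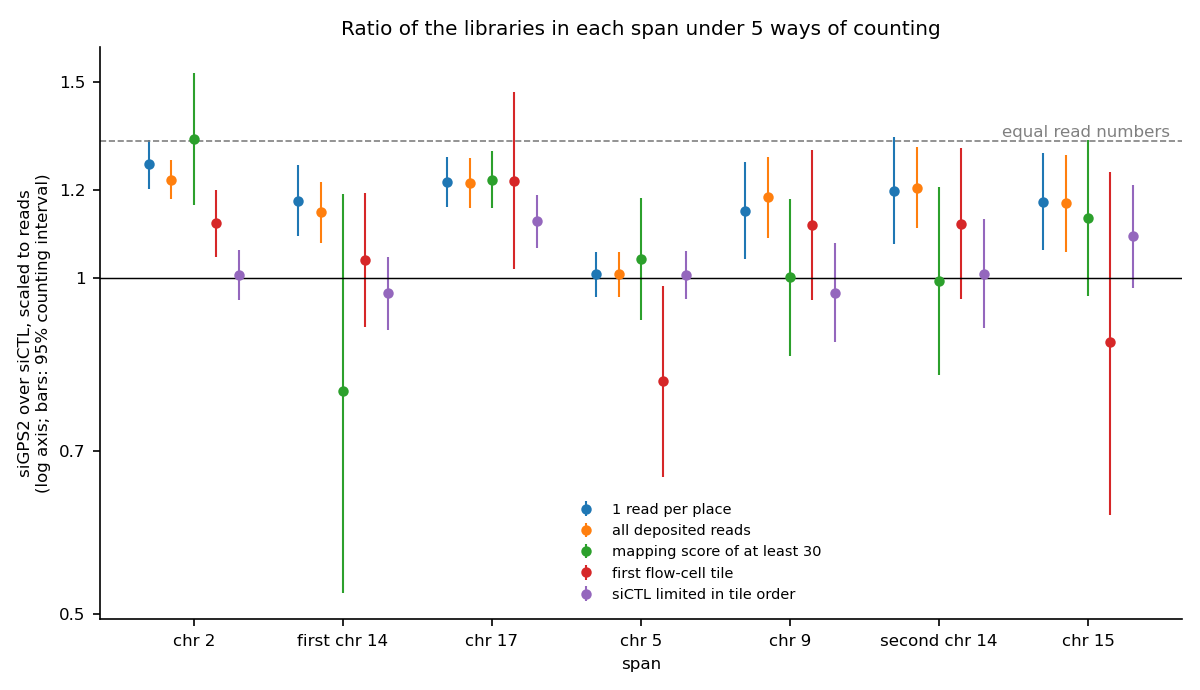
Ratio of siGPS2 to siCTL scaled to reads (vertical axis, log scale) for the 7 spans (horizontal axis) counted in 5 ways, with bars for the 95% counting interval and a dashed line at 1.33, the ratio that equal read numbers give. Counted as distinct reads, 6 spans lie between 1.15 and 1.27 and chromosome 5 at 1.01, and with siCTL limited in tile order to the siGPS2 read number only chromosome 17 has an interval above 1.

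The share of reads in the spans changed along the flow cell. Read names give the tile on which each read was imaged, and 14 tiles held over 100000 reads in both libraries. The order of the tiles was taken from their numbers. In the first tile, chromosome 2 had 516 of every 100000 deposited siCTL reads and 566 of every 100000 siGPS2 reads, and in the last common tile 28.5 and 29.0. That is a fall of 18.1-fold and 19.5-fold across tiles of the same lane. Chromosome 9 fell from 95.6 and 112 to 8.27 and 8.73, and the second chromosome 14 span from 111 and 121 to 7.40 and 11.2. The first chromosome 14 span fell from 131 and 131 to 13.7 and 20.2.

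The other spans changed less. Chromosome 17 went from 61.8 and 75.6 to 34.8 and 44.7 per 100000, and chromosome 15 from 20.5 and 17.97 to 9.80 and 11.9. Chromosome 5 went from 67.0 and 54.2 to 60.1 and 68.4. The 4 spans with steep falls were those with many reads on the same place. Chromosomes 15 and 17 lay between these and chromosome 5.

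**Figure D3:**
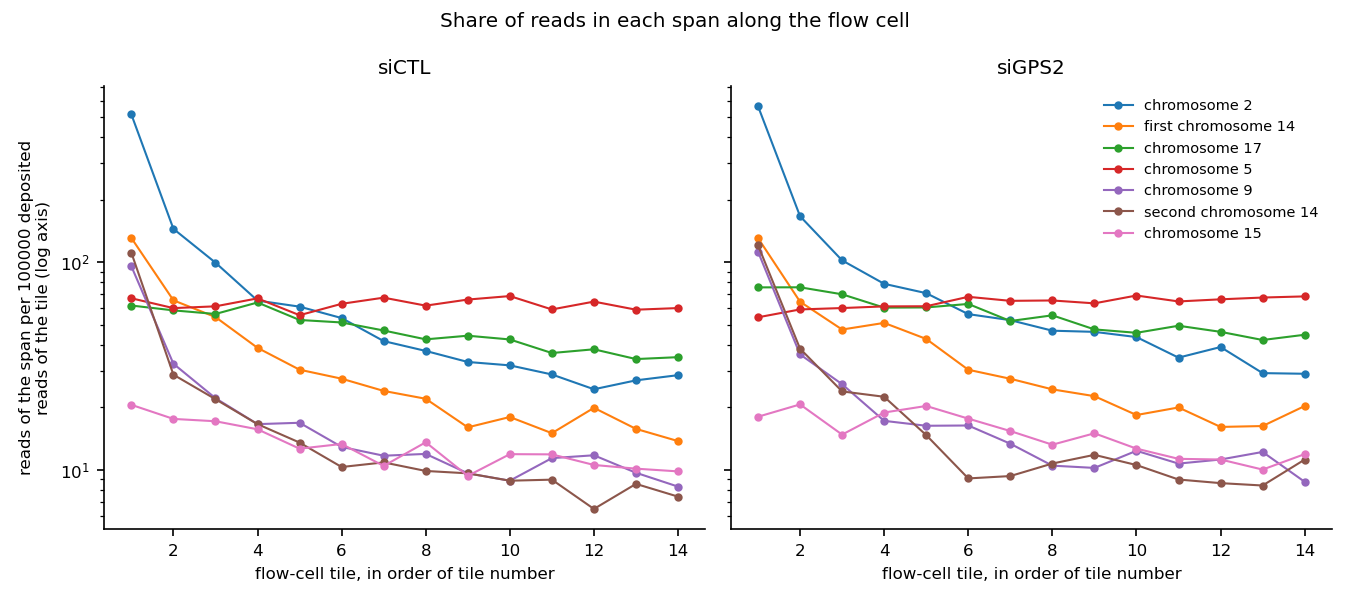
Reads of each span per 100000 deposited reads of the tile (vertical axis, log scale) over the 14 tiles in order of tile number (horizontal axis), siCTL left and siGPS2 right. Chromosome 2 drops from 516 and 566 in the first tile to 28.5 and 29.0 in the last, whereas chromosome 5 stays between 54.2 and 68.4 at these ends.

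Within single tiles, all deposited reads of the 7 spans gave a ratio of 1.03 to 1.19, above 1 in 14 of 14 tiles, with the interval above 1 in 13. Chromosome 2 was above 1 in 14 of 14 tiles with a median of 1.18, with the interval above 1 in 8. Chromosome 17 was above 1 in 13 of 14, with a median of 1.23 and the interval above 1 in 7. Chromosome 5 was above 1 in 8 of 14, with a median of 1.02 and the interval above 1 in 0 and below 1 in 1. In the first tile alone the distinct reads of the 7 spans gave 1.09 (1.03 to 1.14), and chromosome 5 gave 0.809 (0.664 to 0.984).

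Distinct reads over all 14 common tiles, with the same tiles in both libraries, gave 1.12 (1.09 to 1.15) for the 7 spans, 1.18 (1.13 to 1.25) for chromosome 2 and 1.195 (1.13 to 1.26) for chromosome 17.

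The siCTL reads were also taken in tile order only up to the siGPS2 number, 4947088 reads from 11 whole tiles and a part of the next, a comparison chosen after seeing the data. It sets early siCTL tiles against all siGPS2 tiles, so where the share falls along the tiles it lowers the ratio by construction. Chromosome 2 then had 2923 distinct reads in siCTL and 2943 in siGPS2, which gives 1.01 (0.956 to 1.06). The first chromosome 14 span had 1417 and 1374, a ratio of 0.970 (0.900 to 1.05), and chromosome 9 had 757 and 735, a ratio of 0.971 (0.876 to 1.08). The second chromosome 14 span gave 1.01 (0.902 to 1.13), and chromosome 15 gave 1.09 (0.981 to 1.21). Over the 5 spans other than chromosomes 5 and 17, 6383 and 6405 reads gave a ratio of 1.003 (0.969 to 1.04), compared with 1.21 (1.17 to 1.26) at full depth. A random draw of siCTL distinct reads down to the siGPS2 number, 4940261, left the chromosome 2 ratio at 1.27. Such a draw leaves a ratio unchanged on average, so it cannot show what filled places do to the ratio. Whether the fall along the tiles goes with the position of a tile or with the reads already gathered was not tested, so the same-tile and the tile-ordered ratios are given side by side.

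Chromosome 17 was the only span whose interval stayed above 1. Its counts in the tile-ordered comparison were 2459 and 2767, a ratio of 1.13 (1.07 to 1.19), and 10 of its 12 dense windows were above 1, 2 of them with the interval above 1. In this comparison it exceeded the other 5 spans, chromosome 5 left aside, by 1.12-fold (1.05 to 1.196). Most of those 5 spans fell more steeply along the tiles, so the comparison lowered their ratios more by construction. At full depth there was no such excess: chromosome 17 gave 1.22 (1.16 to 1.28) and those 5 spans 1.21 (1.17 to 1.26). The 7 spans together gave 1.03 (1.004 to 1.06), and chromosome 5 gave 1.01 (0.958 to 1.06). Why the chromosome 17 interval stayed above 1 in this comparison was not tested.

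**Figure D4:**
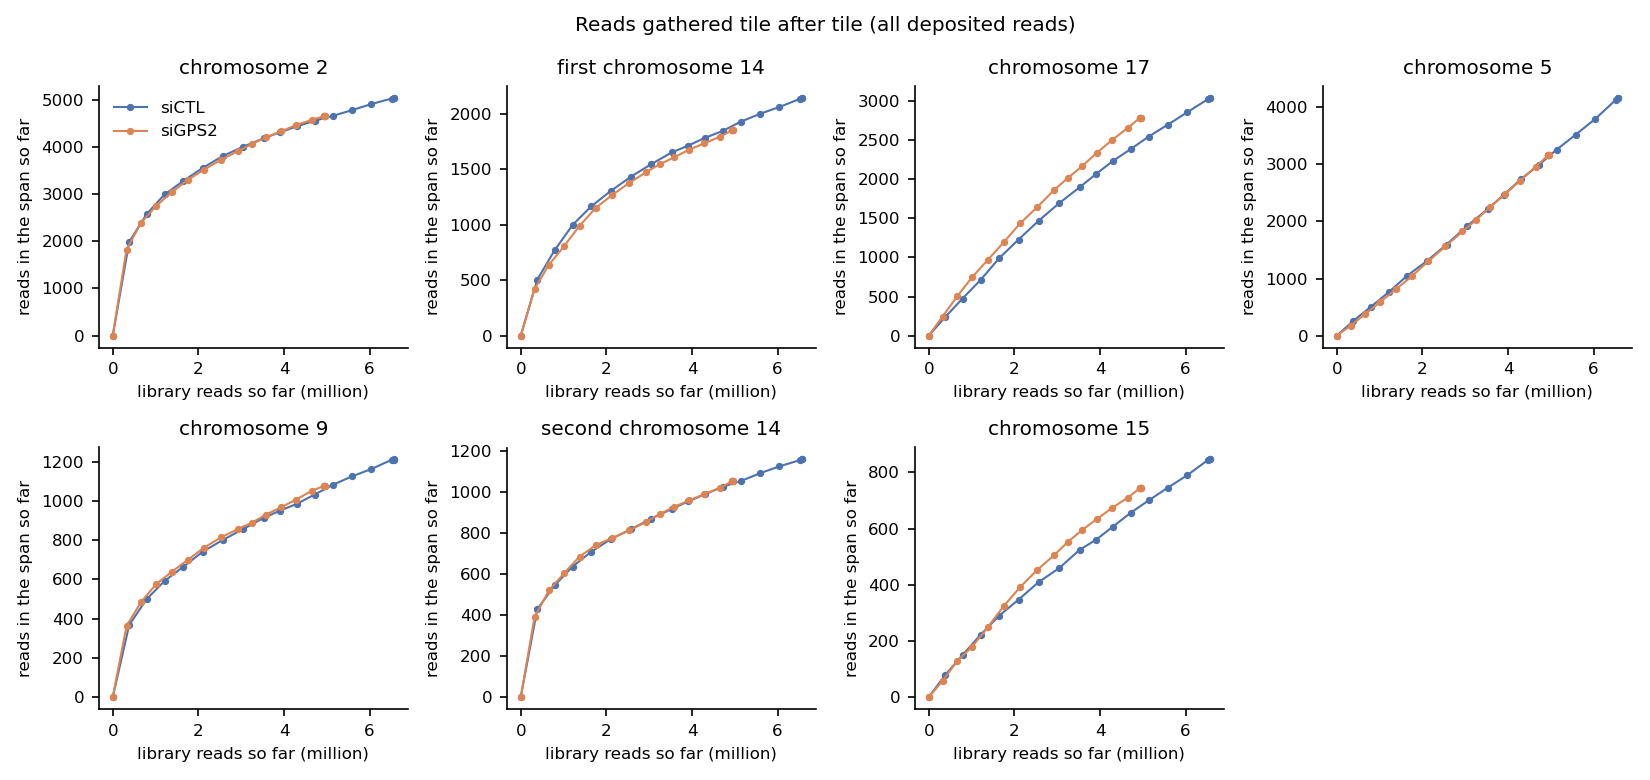
Reads gathered in each span (vertical axis) against the reads gathered in the library (horizontal axis, in units of 1000000), added up tile after tile over all deposited reads, with 1 point per tile and 1 line per library. The lines of the libraries run together on chromosome 2, where 4609 and 4653 reads stand at the equal total of 4947088, and apart on chromosome 17, with 2475 and 2784.

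The dense windows of the 6 spans were also divided by the share of places filled. The 10 windows of the 6 spans in which siCTL filled at least 30% of places gave 4469 and 4249 reads, a ratio of 1.26 (1.21 to 1.32). With siCTL limited in tile order this became 0.998 (0.956 to 1.04). The 21 windows with fewer filled places gave 1.24 (1.18 to 1.29) at full depth and 1.09 (1.05 to 1.15) in the limited comparison. These 21 include all 12 dense windows of chromosome 17, and without them the other 9 gave 1.24 (1.15 to 1.34) at full depth and 1.02 (0.944 to 1.10) in the limited comparison. Apart from chromosome 17, the windows with many and with few filled places thus had ratios with overlapping intervals.

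**Figure D5:**
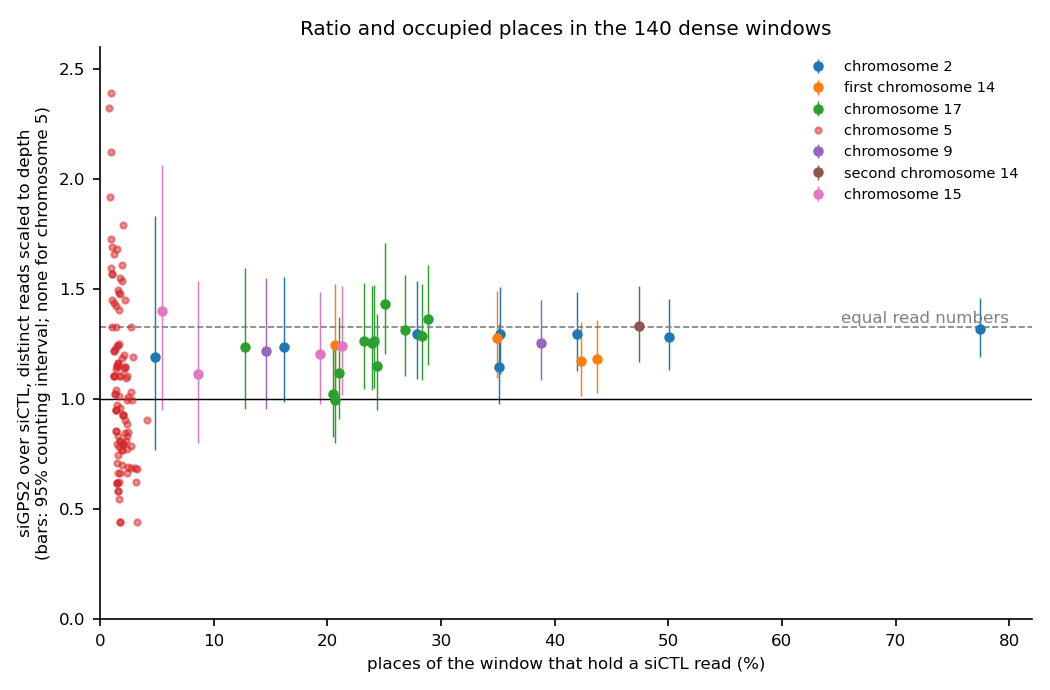
Ratio of siGPS2 to siCTL in distinct reads scaled to depth (vertical axis) against the share of places that hold a siCTL read (horizontal axis, percent) for the 140 dense windows, coloured by span, with 95% counting intervals except for chromosome 5. Windows from 34.9% to 77.4% filled lie between 1.15 and 1.33, close to or below the dashed line of equal read numbers, while the chromosome 5 windows spread from 0.443 to 2.39 around a median of 1.02.

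Other densely covered parts of the genome were counted in the same way. The first 100 kb of assembled sequence of the 19 autosomes, next to the centromeres, had a ratio of 1.13 (1.12 to 1.15), and the 7 spans exceeded it 1.02-fold (0.991 to 1.05). Another 7 dense bins of 100 kb in which under 50% of reads scored at least 30 had a ratio of 1.13 (1.11 to 1.15), and the spans exceeded these 1.02-fold (0.994 to 1.05). The 19 dense bins with mostly high-scoring reads had a ratio of 1.04 (1.03 to 1.05), and the spans exceeded them 1.11-fold (1.08 to 1.14). Without chromosome 5, the other 6 spans exceeded these 3 sets by 1.07-fold (1.04 to 1.11), 1.08-fold (1.04 to 1.11) and 1.17-fold (1.14 to 1.205). The interval for all 7 spans thus included 1 against the chromosome starts and the low-scoring bins, and that for the 6 spans lay above 1 against each set. In the tile-ordered comparison these 3 sets gave 0.988, 0.976 and 1.02. The 7 spans then exceeded them by 1.04-fold (1.01 to 1.07), 1.05-fold (1.02 to 1.09) and 1.01-fold (0.985 to 1.04). Chromosome 17 exceeded them then by 1.14-fold (1.08 to 1.21), 1.15-fold (1.09 to 1.22) and 1.11-fold (1.05 to 1.17).

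The deposited peak lists, called by the authors for each library, had 47 peaks inside the spans in siCTL and 48 in siGPS2. The lists carry no score, and several peaks of a list overlap one another. The first peak of each list lay on chromosome 2, at chr2:98466972-98468971 in siCTL and chr2:98466979-98468978 in siGPS2. The peak of the second chromosome 14 span, chr14:39186556-39188555 in siCTL, stood at place 2 of both lists, and that of chromosome 9, chr9:35054198-35056197, at place 5 of both. The first listed of the first chromosome 14 span, chr14:18207946-18209945, stood at place 6 of both, and the first listed on chromosome 15, chr15:74912990-74914989 in siCTL, at place 20 of both.

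Both lists had 4 peaks on chromosome 2, 3 in the first chromosome 14 span, 3 on chromosome 15, and 1 each in the second chromosome 14 span and on chromosome 9. Chromosome 5 had 35 peaks in siCTL and 36 in siGPS2, the highest at places 118 and 152. Not all of these chromosome 5 peaks had a counterpart in the other list. Chromosome 17 had 0 peaks in either list, although its dense stretch held more distinct reads than any other single stretch of the spans. The peaks of chromosome 2 lay over its outer 2 stretches and reached the inner 2 only in part.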

How the data were processed

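The submitters' processing notes list Bowtie, HOMER and mm8 and say nothing of their roles, versions or settings. The authors deposited alignments of both libraries, in which the mapping quality score is the only measured column (0 to 42, not normalized), and a peak list with no other values than peak coordinates, called per library with no control named. Truncated lines (3 of siCTL, 6 of siGPS2) were skipped. No test was made with 1 library per group. Reads were counted in 500 bp windows by their 5 prime end, 1 per position and strand (distinct) and all. Ratios carry exact conditional (Clopper-Pearson) 95% intervals, shares Wilson intervals, and comparisons of ratios normal intervals on the log scale. Dense windows joined where adjacent were called stretches. Other dense bins were those of 100 kb with at least 5 times the median. Regions named were the dense stretches and highest window of each span, called windows (up to 5 in each direction), and deposited peaks by count and by the first listed of each span. The spans, criteria and comparisons were chosen with earlier results of these data known, the ratios of single spans included, and give no independent support. Alternatives covered mapping score, repeats, scaling, thinning, tiles, window size and offset, and limits on reads and fold. Depth was 6559860 and 4940261 distinct reads. Programs were tested on simulated data. Python 3.11.15, numpy 2.4.6, scipy 1.17.1, pandas 2.3.3 and matplotlib 3.10.9 were used.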

Additional observations from a re-analysis of the deposited data

How the results depend on the processing

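Alternatives by tile and by tile-ordered read number were chosen after seeing the data. The ratio of the 7 spans (1.15) became 1.12 on the 14 common tiles, 1.09 on the first tile, 1.19 on the last common tile and, with siCTL limited in tile order to the siGPS2 read number, 1.03 in distinct and 1.03 in all reads. The dense windows (1.21) became 1.16, 1.11, 1.29, 1.04 and 1.04, and the other windows (0.995) 0.841 on the first tile. The limited comparison turned the first chromosome 14 span to 0.970 in distinct reads and 0.977 in all reads, and chromosome 9 to 0.971 in distinct reads. Reads of mapping score 30 or more turned the first chromosome 14 span to 0.793 and the second to 0.995, and the first tile turned chromosome 15 to 0.876 and chromosome 5, whose ratio of 1.01 had an interval around 1, to 0.809.

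Windows called higher (0) numbered 2 with scores of at least 30, 1 with scores under 30, 2 with siCTL thinned at random to the siGPS2 depth, 3 in windows of 1000 bp, 1 with windows shifted by 250 bp and 19 with no fold limit. Windows called lower (1) numbered 0 with scores of at least 30, in windows of 1000 bp, with shifted windows and with a minimum of 100 reads. The share of well-placed reads (30.9% and 31.2%) was 37.9% and 38.7% at a limit of 10, and 24.9% and 25.1% over all deposited reads. With scores of at least 30, the spans exceeded all other dense bins 1.13-fold, the low-scoring bins 1.12-fold and the chromosome starts 1.09-fold (1.09, 1.02 and 1.02 over all scores). Of 77 alternative ratios of single spans, 54 stayed within the interval of the span at full depth, 17 moved further and 6 changed direction among spans whose interval excluded 1.

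No paired analysis was possible because each group has 1 library and the labels give no replicate numbers. Counts near the number of places cannot show a further rise.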

Other observations

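The reads of the dense windows were examined for a regular spacing, which a tandem array of short units could give. No spacing common to all 7 spans was found. Counting pairs of distinct reads on the same strand at distances of 100 to 600 bp, chromosome 2 had the most pairs at 147 bp in siCTL and 140 bp in siGPS2. Using only reads with a mapping score under 30 moved these to 122 and 120 bp. Later maxima of the chromosome 2 profile, each the highest within 60 bp on either side, lay at 310 and 490 bp in siCTL and at 315 and 490 bp in siGPS2. Such maxima were not particular to chromosome 2. The first chromosome 14 span had them at 190 and 295 bp in siCTL and at 200, 295, 370 and 475 bp in siGPS2. Chromosomes 5, 15 and 17 also had some. The second chromosome 14 span had the most pairs at 102 and 117 bp, and at 119 and 117 bp with reads of score under 30. Its 102 bp lay near the shortest distance examined, and its 1 dense window gave enough pairs only up to 450 bp. No repeat unit can therefore be read from the second chromosome 14 span. The first chromosome 14 span had most pairs at 106 and 107 bp, and chromosomes 9 and 15 at 100 or 101 bp, at or next to the shortest distance examined, so that no repeat unit can be read from these 3 spans. Chromosome 17 had 150 and 153 bp, and with reads of score under 30 it had 524 and 517 bp. Its profile was nearly flat. Pairs ran from 0.980 to 1.08 times what the mean filling of places gives in siCTL, and from 1.02 to 1.11 times in siGPS2. Without smoothing over 10 bp its distances were 146 and 316 bp. Chromosome 5 had 581 and 547 bp, which became 431 and 483 bp without smoothing.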
